A study of Homo sapiens with 6 samples.

Results

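The genes described here encode epithelial antimicrobial proteins: RNASE7, the beta-defensins DEFB4A, DEFB4B and DEFB1, the iron-binding defence proteins LCN2 and LTF, the antiproteases PI3 and SLPI, and the cathelicidin CAMP. These 9 genes were taken by name from the 58243 genes listed in the files, after identifiers without version were matched to GENCODE release 29. Their transcripts were measured by mRNA sequencing of bulk RNA from CAL27, an established cell line from a human squamous cell carcinoma of the tongue. Cells of 1 group (3 libraries) received metformin at 30 mM for 48 h, a drug of the biguanide class given to lower blood glucose, and cells of the other group (3 libraries) received the PBS vehicle for the same time, all in DMEM with serum and antibiotics. The comparison addresses which transcripts change in head and neck carcinoma cells under the drug. The groups model 1 cell line at 1 dose and 1 time, and no microbe or cytokine was added.

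Squamous epithelia of the mouth and skin secrete small cationic proteins that damage microbial membranes, such as the beta-defensins, the ribonuclease RNase 7 and the cathelicidin peptide cut from the CAMP protein. Lipocalin 2 and lactoferrin withhold iron from microbes, the first by binding bacterial siderophores and the second by binding iron itself. Elafin (PI3) and secretory leukocyte protease inhibitor (SLPI) block neutrophil elastase and related proteases and also have antimicrobial activity of their own. Many of these genes are induced in keratinocytes by interleukin-1, interleukin-17, epidermal growth factor receptor ligands, NF-kappaB, C/EBP and AP-1 factors, and CAMP by the vitamin D receptor.

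Levels are in FPKM as deposited, a fragment count corrected for transcript length and library depth, and group levels are the mean ± SD of 3 libraries. Each log2 change, given with its standard error (SE), is the metformin mean less the PBS mean of log2(FPKM + 1), a scale that understates changes of low genes. FPKM sums were 200842 to 202901 in metformin libraries and 203799 to 208899 in PBS libraries. The spacing of low values gave an estimated depth of 7940000 to 8560000 fragments in metformin libraries and 7810000 to 8820000 fragments in PBS libraries. The 37 mitochondrial genes all stood at 0 throughout, so a listed 0 is not read as absence. The labels name no batch and do not say that libraries of a group were cultured separately, and the p-values therefore reflect only library-to-library spread, possibly technical. Epithelial identity was checked with 16 squamous keratinocyte markers: all 16 averaged at least 1 FPKM, and 3 were higher and 11 lower with metformin. That is 87.5% called by the test given below, against 56.2% of all tested genes. Among them the basal keratins KRT14 and KRT5 had 12.9 ± 0.275 and 52.4 ± 4.19 FPKM with metformin, against 246 ± 17.4 and 355 ± 6.04 FPKM with PBS (SD, n = 3 each).

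Metformin-treated cells had higher levels of RNASE7, LCN2 and DEFB4A and lower levels of the antiproteases PI3 and SLPI. RNASE7 was 7.97-fold higher, LCN2 5.49-fold higher, PI3 2.77-fold lower and SLPI 2.18-fold lower. The remaining 4 members, DEFB4B, DEFB1, LTF and CAMP, lay under a mean of 1 FPKM, the level required for the test. Of 13437 tested genes, limma with Benjamini-Hochberg adjustment called 7549 (56.2%) at an adjusted p below 0.05, with 31% of tested genes called higher and 25.2% called lower. Of the 5 tested members, 3 were called higher and 2 lower. DEFB4A passed the level requirement only through its metformin libraries, so its place in that count was bound to come with a difference. In bulk RNA, a change in the number of cells that make a transcript and a change in the amount per cell cannot be told apart.

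**Figure D1:**
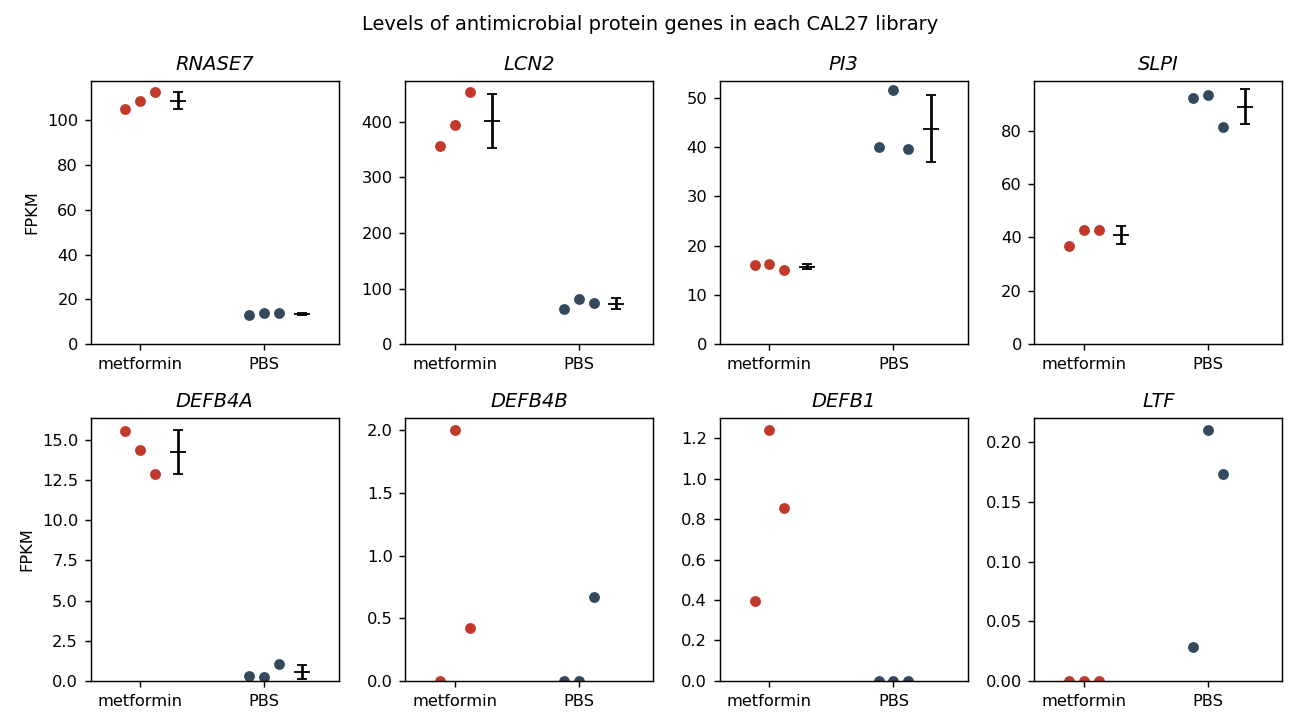
FPKM of 8 members in each library (points), metformin left of PBS, each panel on its own linear axis from 0; for the 5 tested members the bar beside the points is the mean ± SD of 3 libraries. The points of RNASE7, LCN2 and DEFB4A lie higher with metformin and those of PI3 and SLPI lower, with no overlap, while DEFB4B overlaps between groups.

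RNASE7 (ENSG00000165799.4, chromosome 14, 21042226 to 21044234 in GRCh38, plus strand) encodes a secreted ribonuclease of the RNase A superfamily that kills bacteria and is made by keratinocytes. It had 105, 108 and 112 FPKM in the metformin libraries and 13.1, 13.7 and 13.97 FPKM in the PBS libraries. The groups lay far apart, and libraries within a group differed by little. The means were 109 ± 3.79 FPKM with metformin and 13.6 ± 0.436 FPKM with PBS (SD, n = 3 each), with log2 change 2.91 (SE 0.05, limma adjusted p = 9.13e-07). Ordered by mean level among the 13437 tested genes, RNASE7 was at position 214 with metformin and at position 3175 with PBS, and its rise was number 24 in size on the log2 scale. RNH1, the cytosolic inhibitor that binds RNase A-type enzymes, had 10.95 ± 0.395 FPKM with metformin and 12.3 ± 0.516 FPKM with PBS and was not called (limma adjusted p = 0.0716), though it was called lower with median-of-ratios scaling (adjusted p = 0.026) and with quantile normalization (adjusted p = 0.0458). The ribonuclease genes ANG (log2 change 0.53, limma adjusted p = 0.0551) and RNASE4 (log2 change -0.11, limma adjusted p = 0.398) were not called. Both lie on the chromosome of RNASE7 but are not its nearest ribonuclease genes, and their spans overlap each other on the same strand. Though not called, ANG was higher in every metformin library than in any PBS library. RNASE8, which lies nearer to RNASE7, was under the level required for the test.

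LCN2 (ENSG00000148346.11, chromosome 9, 128149071 to 128153455, plus strand) encodes lipocalin 2, which binds the siderophores with which bacteria take up iron. It had 357, 394 and 454 FPKM with metformin and 63.2, 81.3 and 74.8 FPKM with PBS. Every metformin library lay above every PBS library. The means were 402 ± 48.9 FPKM with metformin and 73.1 ± 9.14 FPKM with PBS (SD, n = 3 each), with log2 change 2.44 (SE 0.12, limma adjusted p = 1.16e-05). LCN2 had the highest level per length of the 9 members with metformin, at position 32 of all tested genes, against position 421 with PBS. Of its partners, the lipocalin receptor gene SLC22A17 had 0.0390, 0.153 and 0.0819 FPKM with metformin and was listed at 0, 0 and 0.0265 FPKM with PBS. MMP9, a metalloprotease that lipocalin 2 binds, was listed at 0 in all 3 metformin libraries and at 0, 0 and 0.0486 FPKM in the PBS libraries.

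Bases just before the start of LCN2 and RNASE7, the called members that are higher and have a RefSeq promoter window, are shown because both genes moved the same way. Windows of 250 bases before to 50 after the RefSeq start (GRCh38.p14) were searched on both strands for the NF-kappaB motif (GGG, any 5 bases, then CC), the C/EBP motif TTGCNNAA, the AP-1 motif TGANTCA and the ATF4-C/EBP composite motif TGATGNAA. The stretches printed are those that no exon of the gene in GENCODE 29 covers, chr9:128149265-128149440 for LCN2 and chr14:21042112-21042225 for RNASE7, both on the plus strand, 5′ to 3′, with motif matches in capitals. The span of LCN2 given above begins upstream of its RefSeq start because GENCODE 29 lists further transcripts.
LCN2: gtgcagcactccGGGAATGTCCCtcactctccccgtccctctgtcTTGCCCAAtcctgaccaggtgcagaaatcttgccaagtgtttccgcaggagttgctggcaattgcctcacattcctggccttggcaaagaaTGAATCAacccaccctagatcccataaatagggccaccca
RNASE7: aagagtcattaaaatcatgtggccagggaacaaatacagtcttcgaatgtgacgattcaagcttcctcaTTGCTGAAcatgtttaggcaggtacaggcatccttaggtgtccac
In LCN2 the capitals mark, in order, overlapping matches of the NF-kappaB motif on both strands that begin 176 and 175 bases before the start, a C/EBP match and an AP-1 match. In RNASE7 they mark a C/EBP match, and an AP-1 match (TGATTCA) lies nearer the start, in an exon of GENCODE 29. The RNASE7 window held no match of the NF-kappaB letters and neither window held the composite. Of 35116 promoter windows, 58.7% held the NF-kappaB letters, 10.5% the C/EBP letters, 7.71% the AP-1 letters and 3.62% the composite letters. These are letter matches only, and factor binding was not measured. Windows were matched for RNASE7, LCN2, LTF and CAMP. The CAMP window held the NF-kappaB letters and the composite letters. An LTF window held the NF-kappaB and C/EBP letters, another the NF-kappaB letters alone, and the remaining LTF window no match. The NF-kappaB and C/EBP letters are thus not particular to the members that rose. The AP-1 letters were found in the LCN2 and RNASE7 windows and in no LTF or CAMP window. LTF and CAMP lay under the level required for the test. PI3 and SLPI, the members that fell, had no window, so their promoters were not compared.

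DEFB4A and DEFB4B both encode beta-defensin 2, a cationic peptide that epithelia make under inflammatory stimulation, and are near-identical copies in inverted orientation on chromosome 8. DEFB4A (ENSG00000171711.2, 7894629 to 7896711, plus strand) had 15.5, 14.4 and 12.8 FPKM with metformin and 0.310, 0.269 and 1.03 FPKM with PBS. At the estimated depth and its single annotated transcript, these levels correspond to about 46.9, 46.0 and 41.8 fragments with metformin and about 0.963, 0.800 and 3.46 fragments with PBS. The PBS level therefore rests on very few fragments, and the groups did not overlap. The means were 14.2 ± 1.35 FPKM with metformin and 0.537 ± 0.429 FPKM with PBS (SD, n = 3 each), a 26.5-fold ratio with log2 change 3.34 (SE 0.19, limma adjusted p = 2.34e-05).

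DEFB4B (ENSG00000177257.2, 7414860 to 7416863, minus strand) had 0, 2.00 and 0.426 FPKM with metformin and 0, 0 and 0.667 FPKM with PBS. These values overlapped between the groups and amounted to at most about 5.6 fragments in a library. The annotated transcripts are 380 bases for DEFB4A and 332 for DEFB4B, and the shorter differs from the longer by 1 base over its length (99.7% identity). Fragments of the copies can thus hardly be told apart, and how the authors' counting divided them is not given in the sources used here. Summed over both copies, the level was 15.5, 16.4 and 13.3 FPKM with metformin and 0.310, 0.269 and 1.70 FPKM with PBS, so the difference seen for DEFB4A was also present in the sum, at 15.1 ± 1.599 FPKM against 0.760 ± 0.814 FPKM (SD, n = 3 each).

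DEFB1 (ENSG00000164825.3, chromosome 8, 6870575 to 6878022, minus strand) encodes beta-defensin 1, the defensin that many epithelia make without stimulation. It had 0.395, 1.24 and 0.855 FPKM with metformin, about 1.5, 5.0 and 3.5 fragments, and was listed at 0 in all 3 PBS libraries. The groups did not overlap, and the exact two-sided permutation test gave p = 0.1, the smallest value possible with 3 against 3 libraries. When the level requirement was relaxed to a mean of 0.1 FPKM, DEFB1 entered the test only through its metformin libraries, so it had to differ, and limma gave an adjusted p of 0.00836. DEFB103A and DEFB103B, further copies that encode beta-defensin 3, had 1.95, 2.53 and 2.00 FPKM and 1.72, 2.53 and 2.00 FPKM with metformin and were listed at 0 in every PBS library. Their transcripts of 518 bases are identical (100% identity), so the pair is 1 measurement rather than 2.

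The antiproteases moved the other way. PI3 (ENSG00000124102.4, chromosome 20, 45174876 to 45176544, plus strand) encodes elafin, which transglutaminase can fix to the tissue through its N-terminal part. It had 15.97, 16.2 and 15.1 FPKM with metformin and 39.95, 51.6 and 39.6 FPKM with PBS. The metformin libraries lay close together, all under the lowest PBS library. The means were 15.8 ± 0.571 FPKM with metformin and 43.7 ± 6.81 FPKM with PBS (SD, n = 3 each), with log2 change -1.41 (SE 0.11, limma adjusted p = 7.26e-05).

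SLPI (ENSG00000124107.5, chromosome 20, 45252239 to 45254564, minus strand) lies in the same gene cluster as PI3 and encodes an inhibitor of elastase and cathepsin G with a pair of the four-disulfide-core (WAP) domains of which elafin has a single one. It had 36.8, 42.9 and 42.8 FPKM with metformin and 92.3, 93.3 and 81.4 FPKM with PBS, again without overlap. The means were 40.9 ± 3.47 FPKM with metformin and 89.0 ± 6.62 FPKM with PBS (SD, n = 3 each), with log2 change -1.10 (SE 0.08, limma adjusted p = 6.92e-05). With PBS, SLPI had the highest level per length of the 9 members, and its 81.4 to 93.3 FPKM just cleared the LCN2 range of 63.2 to 81.3 FPKM. Estimated fragment numbers were 174 to 218 per metformin library and 428 to 449 per PBS library for SLPI, and 73.2 to 78.9 and 188 to 233 for PI3. Of 16 further WAP-domain and neighbouring genes, 11 were listed at 0 in every library and 1 was tested, WFDC2, an epithelial secreted protein gene, with 38.5 ± 1.22 FPKM with metformin and 49.3 ± 5.38 FPKM with PBS (SD, n = 3 each; log2 change -0.34, limma adjusted p = 0.011).

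LTF and CAMP encode proteins that neutrophils store in their specific granules, and neither reached the level required for the test. LTF (ENSG00000012223.12, chromosome 3, 46435645 to 46485234, minus strand), the gene of lactoferrin, was listed at 0 in all 3 metformin libraries and had 0.0288, 0.210 and 0.173 FPKM with PBS (exact two-sided permutation p = 0.1, the smallest possible). With no level requirement, limma did not call it (adjusted p = 0.0957). CAMP (ENSG00000164047.4, chromosome 3, 48223347 to 48225491, plus strand), the gene of the cathelicidin LL-37 precursor, was listed at 0 in all 6 libraries, so it could not be compared. No gene in GENCODE 29 shares exon bases with any of the 9 members.

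The make-up of the set thus differed between the groups. The 9 genes summed to 531, 579 and 638 FPKM with metformin and 208.9, 240.4 and 212 FPKM with PBS. LCN2 and RNASE7 together held 86.7% to 88.7% of that sum in metformin libraries and 36.6% to 42.0% in PBS libraries. PI3 and SLPI together held 9.08% to 10.2% in metformin libraries and 57.2% to 63.3% in PBS libraries. The sum is weighted towards LCN2, which alone was 67.3% to 71.1% of it with metformin and 30.3% to 35.4% with PBS.

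**Figure D2:**
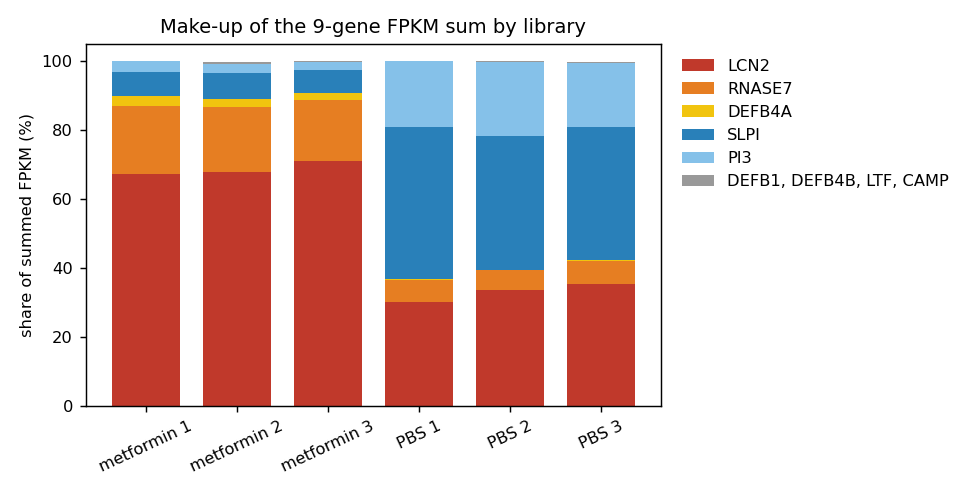
Share of the summed FPKM of the 9 members held by each gene (%, stacked bars from 0 to 100), in 3 metformin libraries left of 3 PBS libraries. LCN2 and RNASE7 fill at least 86.7% of each metformin bar, and PI3 and SLPI at least 57.2% of each PBS bar.

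On the log2 scale the changes were ordered DEFB4A, RNASE7, LCN2, SLPI and PI3. Differences between the changes of single members were not tested. Among the 13437 tested genes the rises of DEFB4A and LCN2 were number 10 and number 60 in size, and the falls of PI3 and SLPI number 224 and number 494. The value for DEFB4A moved most with the pseudocount, because its PBS level was near 0.

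**Figure D3:**
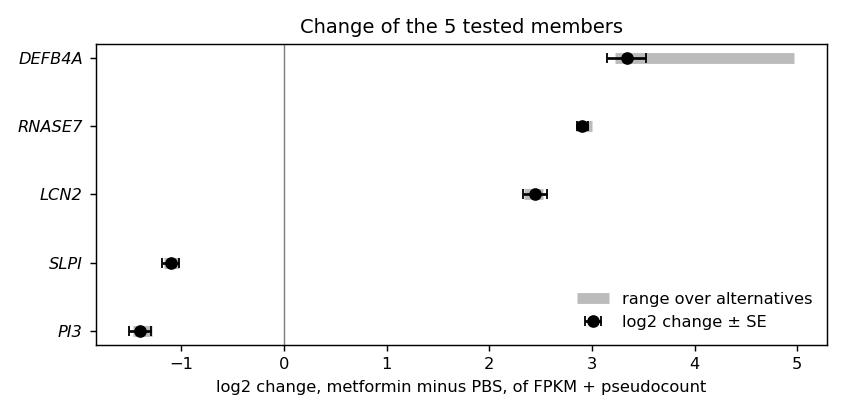
Log2 change, metformin minus PBS, of the 5 tested members (points, with SE as bars), and the range of that value over 19 alternative settings (grey). All 5 keep their side of 0, and the grey range is widest for DEFB4A, from 3.22 to 4.97.

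The genes most like each tested member were found as the protein-coding genes with the smallest Euclidean distance between centred log2 values in the 6 libraries. This measure mostly reflects the size and direction of the difference between the groups. Nearest to RNASE7 were KLHDC7B (distance 0.102), SESN2 (0.116), the gene of the stress-induced protein sestrin 2, and NUPR1 (0.146), a stress-induced nuclear protein gene. SESN2 had 32.9 ± 1.504 FPKM with metformin and 3.61 ± 0.277 FPKM with PBS (SD, n = 3 each). Nearest to DEFB4A, at 0.475 to 0.505, were UPP1, which encodes a uridine phosphorylase, the epidermal growth factor receptor ligand gene AREG, and SPRR2D, a cornified envelope gene. Nearest to LCN2 were AOC2 (0.163), KCND1 (0.344) and PDE5A (0.357), all at lower levels than LCN2. Nearness on this scale, which understates changes of low genes, does not mean equal ratios. AOC2, KCND1 and PDE5A were 16.2-fold, 29.6-fold and 10.7-fold higher, against 5.49-fold for LCN2. KLHDC7B was 27.3-fold higher, against 7.97-fold for RNASE7. AOC2, KCND1, PDE5A, KLHDC7B and SPRR2D passed the level requirement only through the metformin group. The falls of PI3 were most like those of BNIP3 (0.186), PDSS1 (0.187) and RANBP1 (0.194), and those of SLPI most like APEH (0.105), NOTCH3 (0.113) and PDLIM1 (0.116).

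The wider set of antimicrobial genes gave calls in both directions. Of 52 further antimicrobial peptide and protein genes, 20 were listed at 0 in every library and 13 were tested, of which 3 were called higher, 7 lower and 3 neither way (76.9% called, against 56.2% of all tested genes). The median log2 change of the 13 was -0.38, against 0.06 over all tested genes. S100A9, a subunit of the zinc- and manganese-binding protein calprotectin, had 80.9, 82.3 and 78.2 FPKM with metformin and 477, 490 and 411 FPKM with PBS (5.71-fold lower, limma adjusted p = 2.02e-06). Its partner S100A8 was 1.78-fold lower, at 12.9 ± 2.07 FPKM with metformin and 23.0 ± 2.68 FPKM with PBS (SD, n = 3 each). S100A7, the zinc-binding psoriasin, had 10.6, 5.51 and 7.28 FPKM with metformin and 42.6, 55.5 and 40.4 FPKM with PBS. CCL20, a chemokine with antimicrobial activity, was 3.68-fold lower (limma adjusted p = 4.22e-05). The 3 called higher were DEFB103A, DEFB103B and SPRR2A, and all 3 passed the level requirement only through the metformin group, with the DEFB103 pair being 1 measurement. Of the 7 called lower, PGLYRP4, a peptidoglycan recognition protein gene, passed it only through the PBS group. LYZ, the lysozyme gene, had 0, 0.202 and 0.993 FPKM with metformin and 0.375, 0.0726 and 0.511 FPKM with PBS.

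Epithelial protease inhibitors outside the WAP family went both ways. Of 20 tested genes, 7 were called higher and 7 lower (70.0% called; median log2 change 0.13). The serpin genes SERPINB3 and SERPINB4, near-identical neighbours whose fragments may be shared, were 9.1-fold and 10.97-fold lower, and SERPINB1, an inhibitor of neutrophil elastase, was 1.83-fold lower. CST6, a cystatin of the epidermis, was 2.16-fold higher. Of 11 tested proteases that are targets or processors of the members, 5 were higher and 4 lower. Their median was 0.30, and 81.8% were called, against the same 56.2%. The cathepsin genes CTSB and CTSD were 1.79-fold and 1.33-fold lower, CTSS was 1.39-fold higher and PRSS8, a membrane serine protease gene, 1.505-fold higher. The CTSS call was lost with no level requirement (adjusted p = 0.0524) and without any 1 of 4 libraries (adjusted p = 0.0539 to 0.0723 without PBS replicate 2, PBS replicate 3, metformin replicate 1 or metformin replicate 2). ELANE, the elastase that PI3 and SLPI inhibit, was listed at 0 in every library.

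The list of ligands that induce such genes in epithelia, which also holds the antagonist IL1RN among its genes called higher, gave 9 higher and 3 lower of 13 tested genes (92.3% called; median log2 change 0.78). AREG and HBEGF, ligands of the epidermal growth factor receptor, had 122 ± 7.95 FPKM with metformin against 12.2 ± 1.20 FPKM with PBS, and 49.2 ± 0.644 FPKM against 21.8 ± 1.36 FPKM (SD, n = 3 each). The cytokine gene IL6 was 9.79-fold higher. IL1B, interleukin-1 beta, was 2.35-fold lower, at 45.5 ± 0.692 FPKM with metformin and 107 ± 3.90 FPKM with PBS (SD, n = 3 each). IL1RN, the interleukin-1 receptor antagonist, was 3.42-fold higher. IL1A, interleukin-1 alpha, had 194 ± 19.7 FPKM with metformin and 207 ± 6.40 FPKM with PBS (SD, n = 3 each). IL1A was not called (limma adjusted p = 0.304). IL36G, an inducer of defensins in skin, had 0.183, 0.519 and 0.872 FPKM with metformin and 0.746, 0.453 and 0.748 FPKM with PBS. Receptors and adaptors gave 7 higher and 8 lower of 27 tested genes (median 0.03), and the 55.6% called lay near the 56.2% of all tested genes. In that list IL6ST, the shared receptor chain of the interleukin-6 family, IRAK1 and TRAF3IP2, adaptors of interleukin-1 and interleukin-17 signalling, were 1.67-fold, 1.63-fold and 1.65-fold higher, and IFNGR1, an interferon-gamma receptor chain, was 2.89-fold lower.

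The list of transcription factors and their regulators, which also holds the NF-kappaB inhibitor NFKBIA among its genes called lower, gave 15 higher and 7 lower of 30 tested genes (73.3% called; median log2 change 0.27). DDIT3, ATF3 and CEBPG, stress-related factors of the basic leucine zipper class, were 14.6-fold, 7.03-fold and 3.85-fold higher, and HIF1A, the hypoxia-inducible factor, was 3.04-fold lower. NFKBIZ, the NF-kappaB cofactor needed for LCN2 and DEFB4 induction in keratinocytes, had 22.0 ± 1.90 FPKM with metformin and 18.1 ± 0.766 FPKM with PBS (SD, n = 3 each; limma adjusted p = 0.0216), a call lost with median-of-ratios scaling (adjusted p = 0.0537) and without any 1 of 3 libraries (adjusted p = 0.0542 to 0.0675 without PBS replicate 1, metformin replicate 1 or metformin replicate 3). In the vitamin D axis, which acts on CAMP, VDR was 1.26-fold lower and its partner RXRA 1.21-fold lower, the second call being lost with no level requirement (adjusted p = 0.0517), after rescaling to a fixed sum (0.0507), with the replicate block (0.0765) and without any 1 of 4 libraries (adjusted p = 0.0692 to 0.0924 without PBS replicate 1, PBS replicate 2, metformin replicate 1 or metformin replicate 2). The vitamin D target gene CYP24A1 was at 0.142 ± 0.0763 FPKM with metformin and 0.369 ± 0.0413 FPKM with PBS (SD, n = 3 each). That axis gave 1 higher and 3 lower of 4 tested genes (100% called, against 56.2% of all tested genes; median -0.28). Of these, CYP2R1 (higher) and CD14 (lower) passed the level requirement only through 1 group and were bound to differ.

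Genes that handle the iron which LCN2 and LTF withhold gave 3 higher and 4 lower of 9 tested genes (median -0.15). That is 77.8% called, against 56.2% of all tested genes. FTL and FTH1, the ferritin chains that store iron, were 2.90-fold and 2.46-fold higher, and HMOX1, which frees iron from haem, was 4.21-fold higher. TFRC, the transferrin receptor, had 66.5, 83.4 and 82.5 FPKM with metformin and 126, 129 and 130 FPKM with PBS, and ACO1, an iron-regulatory aconitase gene, was 1.98-fold lower. The ferritin genes have processed pseudogenes with which fragments may be shared. In the lists other than the antimicrobial genes, KLK7, TSLP, GRHL3, NOD2 and CYP2R1 passed the level requirement only through the metformin group, and SERPINB4, MMP7, IL22RA1, IL17C, CD14 and LRP1 only through the PBS group.

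**Figure D4:**
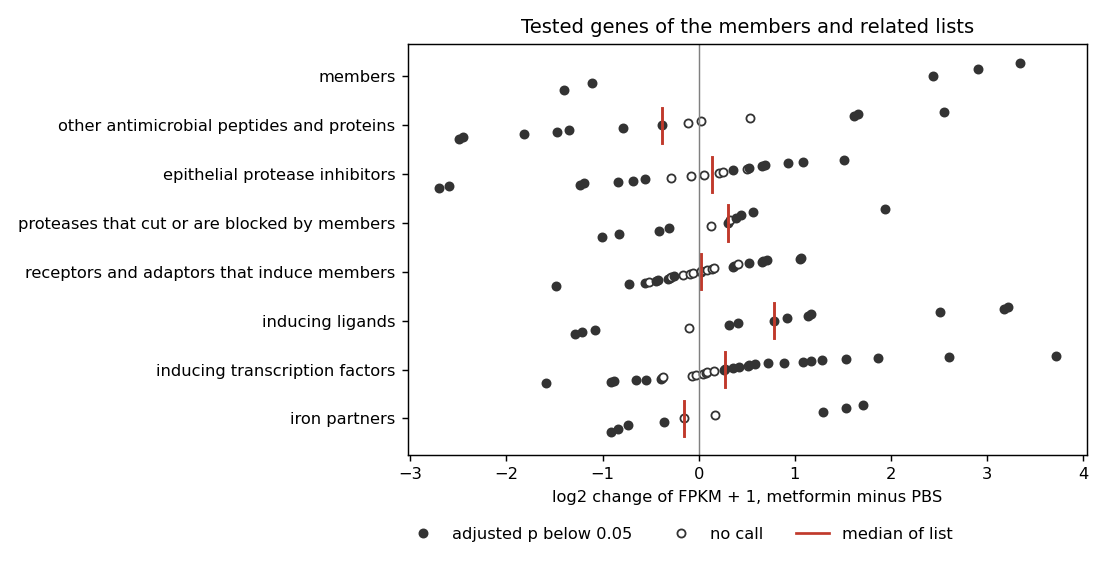
Log2 change of FPKM + 1, metformin minus PBS, of each tested gene (points; filled where the limma adjusted p is below 0.05) in the members and 7 related lists, with the median of each related list as a red line. The other antimicrobial genes have a median of -0.38 and the inducing ligands a median of 0.78.

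LTF, CAMP, LCN2 and SLPI are also neutrophil genes, so markers of other cells were read beside them. Of 16 neutrophil markers, 5 were listed at 0 in every library, among them the granule genes MPO, ELANE and CTSG. The summed level of the 16 was 7.66 to 12.4 FPKM with metformin and 3.19 to 4.503 FPKM with PBS, mostly from LCP1, an actin-bundling protein gene that had 6.92, 7.47 and 7.01 FPKM with metformin and 1.99, 1.85 and 2.11 FPKM with PBS. Summed macrophage markers were 6.32 to 7.62 FPKM with metformin and 4.98 to 6.73 FPKM with PBS, with 6 of 12 at 0 in every library. Summed fibroblast markers were 2.51 to 2.74 FPKM with metformin and 1.54 to 2.34 FPKM with PBS, and summed secretory gland markers 4.495 to 5.26 FPKM with metformin and 3.96 to 5.07 FPKM with PBS, with 3 of 9 and 5 of 10 at 0 in every library. Such sums can hide opposite shifts. The macrophage marker MARCO had 1.43 to 1.51 FPKM with metformin and 0 to 0.0583 FPKM with PBS, while CD14 was 3.93-fold lower. The gland marker MUC2 had 0.0632 to 0.0685 FPKM with metformin and 1.32 to 1.38 FPKM with PBS, while FOXA1 was 1.58-fold higher. Of the 16 keratinocyte markers, KRT16 and SFN were not called and the called ones went both ways: KRT14 and KRT5, the basal keratin pair, were 19.1-fold and 6.77-fold lower, PKP1, a desmosomal plakophilin gene, was 3.78-fold lower and DSG3, a desmosomal cadherin gene, 2.78-fold higher. The part of these shifts in the levels of the members was not tested.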

How the data were processed

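Bulk RNA of CAL27 cells was sequenced in 6 mRNA libraries, 3 with metformin and 3 with PBS, per the labels' protocols. The deposited values are FPKM, 1 for each gene in each library, per the file headers, and the build was GRCh38, per the submitters' processing notes. For the aligner, quantification tool, strand setting and annotation release, the sources used here give nothing. Identifiers without version were matched to GENCODE 29, which named 57980 of 58243 genes. Because FPKM divides by the fragments of the whole library, abundant genes can shift the values of others.

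The test took in 13437 genes whose mean over all libraries reached 1 FPKM. Their log2(FPKM + 1) values entered limma 3.58.1, run in R 4.3.3 (intensity trend, group as the only term, no replicate block). The two-sided p-values were adjusted by Benjamini and Hochberg over all tested genes, with a threshold of 0.05. The fit was tested on simulated data. Members below that level were given by library, with an exact permutation test in SciPy 1.17.1. Depth was estimated from the level of 1 fragment in genes with a single transcript, and covers counting only. Between 2 libraries at most 1 value above 0 was identical.

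The members and lists were chosen with earlier results of these data known. Named besides the members are up to 4 called genes per list that reach 10 FPKM in a group's mean, by size of log2 change, fixed partners of the members, and the 3 protein-coding genes most like each tested member. The genes ANG, RNASE4, LCP1, SPRR2A, PGLYRP4, DEFB103A, DEFB103B, KRT16, SFN, NFKBIA and those named only for passing the level requirement through 1 group fall outside that rule and were chosen after their values were seen. The same holds for RNASE8, IL1A, MARCO, CD14, MUC2 and FOXA1. Promoter letters are from RefSeq. Alternatives were other pseudocounts, level requirements, scalings and limma settings, a replicate block, protein-coding genes alone, summed DEFB4 copies, and each library left out in turn.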

Additional observations from a re-analysis of the deposited data

How the results depend on the processing

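All 5 tested members kept their direction and their call in each of 19 alternatives: other pseudocounts (0.01, 0.1 and 0.5) and level requirements, 3 scalings, the replicate block, limma with a robust prior or no trend, protein-coding genes alone, and each library left out. Log2 changes ranged from 2.85 to 3.00 for RNASE7, 2.34 to 2.52 for LCN2, 3.22 to 4.97 for DEFB4A, -1.47 to -1.28 for PI3 and -1.17 to -1.02 for SLPI, and the highest adjusted p was 0.00102, for SLPI. Members called were 3 higher and 2 lower in each, except 4 higher with a level requirement of 0.1 FPKM or none, where DEFB1, which enters only through its metformin libraries, was added. With DEFB4A and DEFB4B summed, the log2 change was 3.28 (SE 0.29, adjusted p = 0.000136 by limma). At a requirement of 1 or 5 FPKM, DEFB4A and this sum pass only through the metformin libraries. They were thus bound to differ there, and their kept calls are no support. At 0.1 FPKM, which the PBS mean of DEFB4A also reaches, its limma adjusted p was 4.42e-05. All genes called fell to 4738 with a requirement of 5 FPKM, where 7388 genes were tested. Same-numbered libraries did not deviate together (r = -0.000355, 0.0304 and -0.0105), so no pairing by number was seen. Whether same-numbered libraries were handled together is not given in the labels, and these correlations cannot settle it. With the replicate block, 7139 genes were called. Leaving out 1 library gave 6663 to 6886. The median log2 change of all tested genes was 0.06, against 0.10 after rescaling to a fixed sum, 0.01 with median of ratios and -0.01 with quantile normalization, and none of these moved a member's call. Of all calls, 55.2% were higher, against 48.9% with quantile normalization. Depth limits DEFB1 and DEFB4B, which rest on a few fragments per library.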
